A study of Mus musculus with 15 samples.

Results

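The 5xFAD transgene effect in mice without Lilrb4a was read from 7 of the 15 bulk RNA-seq libraries of thalamus in the series, namely 4 5ELKO and 3 ELKO libraries taken by their genotype label. As the study describes them, 5ELKO mice are 5xFAD/APOE4+/+/Lilrb4a-/- and ELKO mice are APOE4+/+/Lilrb4a-/-, so by label both groups carry the human APOE4 knock-in and the Lilrb4a deletion and differ only in 5xFAD. The study lists sequencing quality for 5 5ELKO mice, while the series holds 4 5ELKO libraries, and which mouse is absent is not stated. These mice are listed under names with +- signs that the sources used here do not explain. Whether each was homozygous therefore cannot be told, and the labels were followed. All mice were sampled at 4.5 months after perfusion. 5EL mice (5 libraries, 5xFAD with APOE4 and intact Lilrb4a) and EL mice (3 libraries, APOE4 with intact Lilrb4a) were used for a side-by-side reading of the same difference where the receptor is present. The deposited values are on a log2 scale, and a gene was tested when it reached about the log2 of 10 in at least 3 of the 7 libraries, which left 15748 of 29659 genes. Differences are given in log2 units as 5ELKO minus ELKO with the limma standard error (SE), and they come from whole tissue, so fewer cells of a type and less RNA per cell cannot be told apart. No source states which libraries came from separate litters, and the p-values measure the spread between these libraries.

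The 5xFAD line expresses mutant human APP in neurons from the Thy1 promoter and deposits amyloid early in life. Microglia that gather at amyloid plaques take on a disease-associated (DAM) program, in which the receptor TREM2 signals through TYROBP and genes for phagocytosis and lysosomal proteins are induced, while astrocytes around plaques raise GFAP and acute-phase genes. Lilrb4a encodes an inhibitory receptor of myeloid cells that signals through ITIM motifs, which oppose the activating ITAM pathway used by TREM2 and Fc receptors.

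Lilrb4a lay at 2.33 in all 7 libraries, 5ELKO and ELKO alike and below the filter, against 2.34 to 2.66 in the 8 libraries with the intact gene. Mouse App (difference 0.04 ± 0.07 SE) and Thy1 (-0.04 ± 0.07) did not separate the groups, so these mouse genes gave no check of the human transgenes. Xist was between 0.17 and 0.31 and Ddx3y, a Y-linked gene, between 10.34 and 10.68 in every library of the series. Thalamic relay markers were present, with Slc17a6 between 13.68 and 14.01. Correlations between libraries ranged from 0.991 to 0.999. ELKO replicate 1 stood apart in mouse Apoe, at 10.90 against 5.92 to 6.37 in the other 14 libraries, and ELKO replicate 2 in choroid plexus transcripts, with transthyretin (Ttr) at 14.66 against 7.94 to 10.16 in the other 6 libraries compared. An Apoe level of this size goes against the APOE4+/+ label of ELKO replicate 1, a name that below means the library so labelled. Counts and calls are given without a library in many cases where leaving it out changed them, though not in all.

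No gene differed between 5ELKO and ELKO at an adjusted p under 0.05 in limma (0% of genes higher and 0% lower). At an unadjusted p under 0.05 there were 258 higher genes (1.64%) and 135 lower genes (0.857%), 393 together or 2.5% of those tested, where 787 would be 5%. The threshold of the study, a nominal p under 0.05 with a fold over 1.2, was passed by 71 higher genes (0.451%) and 19 lower genes (0.121%), which are referred to as nominal genes in what follows. The higher set held glial genes (Cst7, Trem2, Itgax, C4b, Gfap, Serpina3n), inhibitory neuron genes (Gad1, Gad2, Slc32a1, Dlx1) and 17 genes of a hepatocyte marker list, led by albumin (Alb). The groups did not overlap for 32 of the 71 and 9 of the 19, and over all genes this was so for 280 higher (1.78%) and 254 lower (1.61%). The 71 became 152 without ELKO replicate 1, 113 without ELKO replicate 2, 121 without 5ELKO replicate 2 and 46 without 5ELKO replicate 4, and the 19 became 87 without ELKO replicate 1 and 123 without ELKO replicate 3. Without ELKO replicate 1 the 71 and the 152 shared 58 genes.

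Itgax, Trem2 and Clec7a are plaque-associated microglial receptors of the DAM list that passed the nominal threshold, and the 250 bases before their starts are shown because microglial promoters are known for PU.1 and AP-1 sites. The windows are from RefSeq on GRCm38.p6, at chr7:128129300-128129549 (plus strand) for Itgax, chr17:48346151-48346400 (plus strand) for Trem2 and chr6:129472780-129473029 (minus strand) for Clec7a. Capitals mark the PU.1 core GAGGAA and the AP-1 motif TGANTCA on either strand, and no matches overlapped. Clec7a has a further window in RefSeq, and the first listed was used.
Itgax: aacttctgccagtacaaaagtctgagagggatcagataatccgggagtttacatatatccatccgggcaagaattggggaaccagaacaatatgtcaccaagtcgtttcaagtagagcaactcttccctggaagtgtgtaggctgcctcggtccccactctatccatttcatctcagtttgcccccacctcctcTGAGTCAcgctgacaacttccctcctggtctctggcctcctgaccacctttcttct
Trem2: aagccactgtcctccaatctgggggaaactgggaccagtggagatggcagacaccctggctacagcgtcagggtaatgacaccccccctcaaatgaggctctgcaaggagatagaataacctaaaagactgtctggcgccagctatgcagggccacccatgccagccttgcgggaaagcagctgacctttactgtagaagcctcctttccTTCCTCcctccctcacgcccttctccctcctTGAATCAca
Clec7a: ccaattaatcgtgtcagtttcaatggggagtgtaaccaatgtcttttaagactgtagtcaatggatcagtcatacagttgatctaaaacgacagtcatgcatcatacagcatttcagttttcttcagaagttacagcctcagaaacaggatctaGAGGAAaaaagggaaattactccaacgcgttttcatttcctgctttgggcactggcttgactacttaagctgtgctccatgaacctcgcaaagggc
Of 29 DAM genes with a window, 10 (34.5%) held the PU.1 core and 7 (24.1%) the AP-1 motif, whereas 23.1% and 6.87% of 27025 windows over all genes did. For the tested genes these shares were 22.1% and 4.22% of 11433 windows. The STAT motif TTCNNNGAA was found in 0 of the 29 DAM windows and in 7.18% of all windows. Homeostatic microglia genes, the other microglial list, had the PU.1 core in 3 of 18 windows (16.7%) and the AP-1 motif in 0 of 18. The PU.1 core was in 36.0% of 25 reactive astrocyte windows, 40.0% of 10 complement windows and 13 of 62 windows of the higher nominal genes. The window of Cst7, not shown, held none of the 3 motifs. These are letter matches and say nothing of binding.

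DAM genes were mostly higher in 5ELKO, by small amounts and with wide spread among the 5ELKO libraries. Of 40 genes on the list 36 were tested, 33 of these lay above 0 (49.7% of all genes did), the median difference was 0.125 against -0.001 over all genes, and 7 passed the nominal threshold as higher and 0 as lower. They were Cst7, Trem2, Itgax, Cd68, Clec7a, Gpnmb and Ctsz. The count was 6 without ELKO replicate 1 and 4 without ELKO replicate 2, while it was 12 without 5ELKO replicate 2, 2 without 5ELKO replicate 1 and 1 without 5ELKO replicate 4. Without ELKO replicate 2 Cst7, Trem2, Clec7a, Cd68 and Gpnmb fell short of the threshold and without ELKO replicate 1 Ctsz did, while Itgax passed whichever single library was left out. The median was 0.162 without ELKO replicate 1 and 0.131 without ELKO replicate 2, and it fell to 0.084 without 5ELKO replicate 1 and 0.088 without 5ELKO replicate 4.

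Cst7, which encodes cystatin F, an inhibitor of lysosomal cathepsins and a leading DAM gene, measured 6.87, 5.58, 5.86 and 6.59 in 5ELKO replicates 1 to 4 and 5.73, 5.30 and 5.31 in ELKO replicates 1 to 3. Replicates 1 and 4 of 5ELKO were high, replicate 2 fell inside the ELKO range, and ELKO replicate 1 was the highest library without 5xFAD. The difference was 0.78 ± 0.28 (1.71-fold, nominal p = 0.0192, exact permutation p = 0.143). It was 0.92 without ELKO replicate 1 and 0.99 without 5ELKO replicate 2, both past the nominal threshold. It was short of the threshold at 0.70 without ELKO replicate 2 and at 0.66 without 5ELKO replicate 4.

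Itgax, the integrin chain CD11c, had non-overlapping groups, the only DAM gene of the 36 for which this held. Over all genes tested 1.78% were higher in 5ELKO without overlap, so 1 in a list of 36 is near that share. Its values were 6.01, 5.21, 5.28 and 5.79 in 5ELKO and 5.18, 4.99 and 4.91 in ELKO. The difference was 0.54 ± 0.18 (1.46-fold, nominal p = 0.0137, exact permutation p = 0.114). The gap between the lowest 5ELKO and the highest ELKO library, replicate 2 and replicate 1, was narrow beside the spread within 5ELKO.

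Trem2, the lipid-sensing receptor on which the DAM state depends, measured 8.64, 7.72, 8.09 and 8.78 in 5ELKO and 7.82, 7.55 and 7.80 in ELKO. As for Cst7, 3 of 4 5ELKO libraries exceeded all ELKO libraries and replicate 2 did not. The difference was 0.58 ± 0.22 (nominal p = 0.0266, exact permutation p = 0.171), and without ELKO replicate 2 it was 0.50, short of the threshold. It was also short at 0.47 without 5ELKO replicate 1 and at 0.43 without 5ELKO replicate 4. Clec7a, the beta-glucan receptor dectin-1, measured 5.45, 4.64, 4.98 and 5.41 in 5ELKO and 4.81, 4.65 and 4.60 in ELKO. Again 5ELKO replicate 2 lay among the ELKO libraries and the other 3 above them. The difference was 0.44 ± 0.17 (nominal p = 0.0311, exact permutation p = 0.143) and 0.42, short of the threshold, without ELKO replicate 2. Clec7a fell short too without ELKO replicate 3 (0.39), 5ELKO replicate 1 (0.33) or 5ELKO replicate 4 (0.34).

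Cd68, an endolysosomal protein of phagocytes, differed by 0.45 ± 0.17, Gpnmb, a glycoprotein of lipid-loaded phagocytes, by 0.35 ± 0.14 and Ctsz, the lysosomal protease cathepsin Z, by 0.33 ± 0.12. Csf1 (0.16), a microglial growth factor, and the actin-capping gene Capg (0.23) had a nominal p under 0.05 below the fold threshold. Other members of the program did not pass: Tyrobp, the TREM2 adaptor, differed by 0.27 ± 0.18, Lpl by 0.27 ± 0.12, Spp1 by 0.14 ± 0.12, Axl by 0.04 ± 0.08 and Igf1 by 0.03 ± 0.08. The lowest differences on the list were those of Fabp5 (-0.09), Cd63 (-0.07) and Hif1a (-0.02), the 3 tested members below 0.

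**Figure D1:**
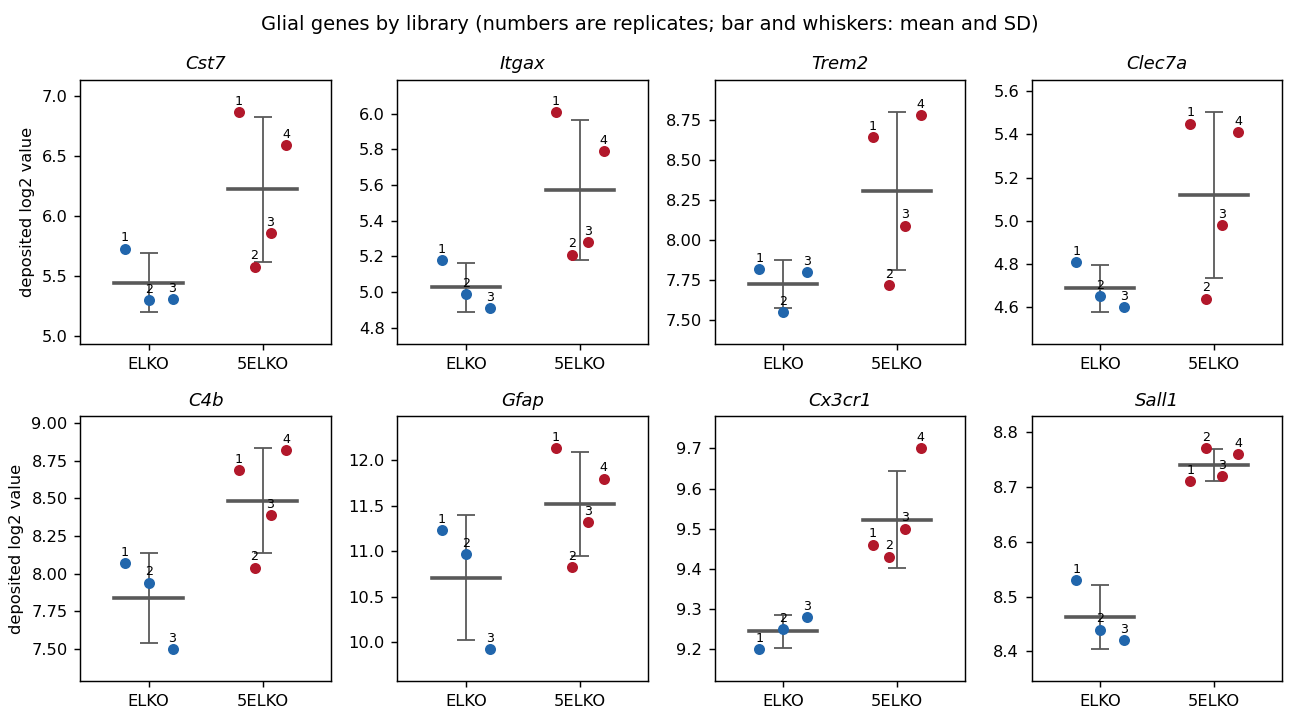
Deposited log2 values of 8 glial genes in each ELKO (blue) and 5ELKO (red) library, with the replicate number above each point, the group mean as a bar and the SD as whiskers, and axes that do not start at 0. In Cst7, Trem2 and Clec7a 5ELKO replicate 2 sits among the ELKO libraries, while in Cx3cr1 and Sall1 the groups do not overlap.

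The position of single libraries repeated over the DAM list. 5ELKO replicate 2 was the lowest of its group for 26 of 36 genes, and 5ELKO replicate 4 the highest for 20 and replicate 1 for 12. The mean log2 level of the list was 8.377, 8.020, 8.127 and 8.397 in 5ELKO replicates 1 to 4 and 8.071, 8.042 and 8.034 in ELKO. The 5ELKO libraries thus spanned both sides of the ELKO range. ELKO replicate 1, the library with high mouse Apoe, was above the other 5 libraries without 5xFAD and above the lowest 5xFAD library for Cst7, Itgax, Clec7a, Gpnmb, Gfap, Serpina3n and C4b. For Trem2, Cd68 and Ctsz, also checked, it was not above all of these 5 libraries (7.82, 6.66 and 9.29 against highest values of 8.04, 6.69 and 9.35). The part of ELKO replicate 1 in the result is given by the values without it.

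**Figure D2:**
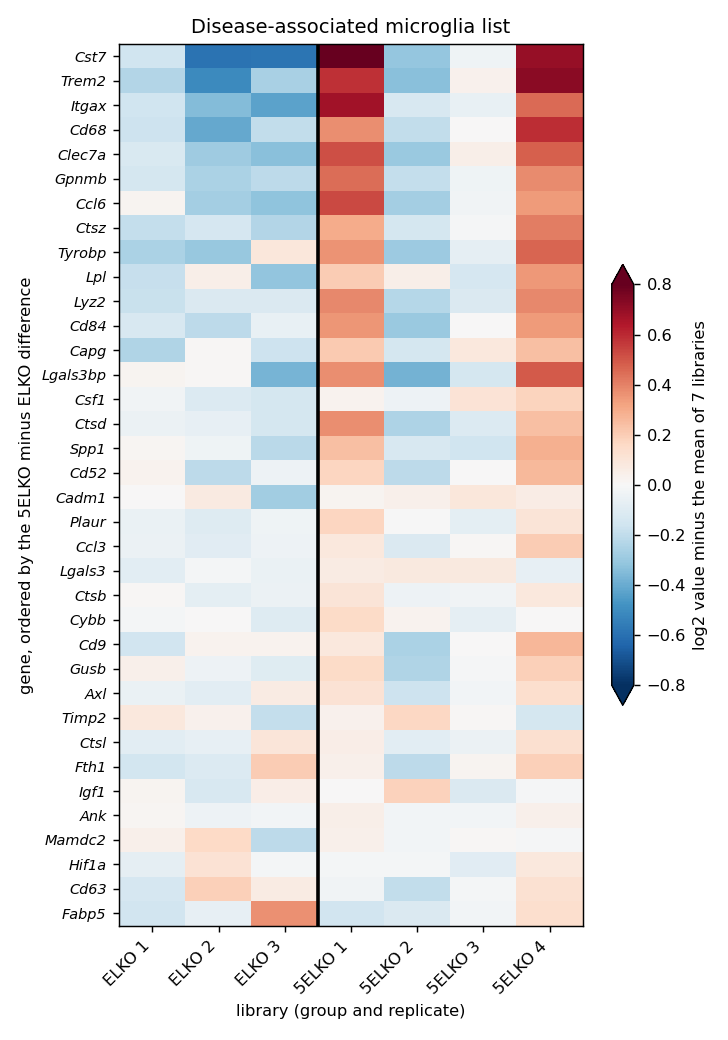
Heat map of the 36 tested DAM genes (rows, ordered by the 5ELKO minus ELKO difference) in the 7 libraries (columns), coloured by the log2 value minus the mean of the 7 libraries. The upper rows are red in 5ELKO replicates 1 and 4 and pale or blue in replicates 2 and 3, and 33 of the 36 rows have a difference above 0.

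None of the homeostatic microglia genes, which mark unstimulated microglia, passed the nominal threshold as lower in 5ELKO. All 24 were tested, 17 lay above 0, the median was 0.086, and 3 passed as higher. Sall1, the transcription factor that maintains microglial identity in the brain, measured 8.71, 8.77, 8.72 and 8.76 in 5ELKO and 8.53, 8.44 and 8.42 in ELKO. All 5ELKO libraries lay above all ELKO libraries with an SD of 0.030, and the difference was 0.28 ± 0.06 (1.21-fold, nominal p = 0.000835, exact permutation p = 0.0286, the smallest that 35 splits allow).

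Cx3cr1, the fractalkine receptor of microglia, measured 9.46, 9.43, 9.50 and 9.70 in 5ELKO and 9.20, 9.25 and 9.28 in ELKO, again without overlap. The difference was 0.28 ± 0.07 (nominal p = 0.00364, exact permutation p = 0.0286). Fcrls, an Fc receptor-like gene of resident microglia, differed by 0.40 ± 0.17 with overlapping groups and, like the DAM genes, was highest in 5ELKO replicates 1 and 4. P2ry12, the purinergic receptor that steers microglial processes, differed by 0.06 ± 0.11, Tmem119 by -0.09 ± 0.08 and Csf1r by 0.19 ± 0.10, none past the threshold. The count of 3 became 1 without ELKO replicate 1, where Cx3cr1 (0.26) fell under the fold threshold and Fcrls (0.42) short of the nominal p, 2 without ELKO replicate 2, where Fcrls was 0.32, 1 without 5ELKO replicate 4 and 6 without 5ELKO replicate 2. Sall1 was 0.26, under the fold threshold, without ELKO replicate 3.

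Of the 24 Fc receptor and ITAM signaling genes 20 were tested, 19 lay above 0 with a median of 0.097, and 2 passed as higher, Trem2 and Fcgr2b. Fcgr2b, the inhibitory Fc gamma receptor, measured 6.61, 6.04, 6.17 and 6.58 in 5ELKO and 6.09, 5.98 and 6.02 in ELKO, a difference of 0.32 ± 0.14 (nominal p = 0.0416, exact permutation p = 0.171). The activating receptor Fcgr3 differed by 0.25 ± 0.10 without overlap, below the fold threshold, and the shared adaptor gene Fcer1g by 0.18 ± 0.14. Pirb, a relative of Lilrb4a with ITIM motifs, lay between 2.51 and 2.63 in all 7 libraries and was not tested. The count was 1 without ELKO replicate 1 and 0 without ELKO replicate 2, 5ELKO replicate 1 or 5ELKO replicate 4. It was 5 without 5ELKO replicate 2 and 4 without 5ELKO replicate 3.

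Most complement genes were higher in 5ELKO. Of 20 genes 18 were tested, 14 lay above 0 (77.8%) with a median of 0.144, 3 passed as higher (C4b, C3, C3ar1) and 1 as lower (Cd59a). C4b, a classical-pathway component made by astrocytes and oligodendrocytes, measured 8.69, 8.04, 8.39 and 8.82 in 5ELKO and 8.07, 7.94 and 7.50 in ELKO. Only 5ELKO replicate 2 fell under an ELKO library, and the difference was 0.65 ± 0.19 (1.57-fold, nominal p = 0.0066, exact permutation p = 0.0857). It was 0.77 without ELKO replicate 1 and 0.70 without ELKO replicate 2.

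C3, the central component, measured 5.91, 5.64, 6.26 and 5.67 in 5ELKO and 5.49, 5.50 and 5.30 in ELKO, without overlap (0.44 ± 0.14, nominal p = 0.011, exact permutation p = 0.0857). C3ar1, the receptor for the C3a fragment, differed by 0.36 ± 0.11, also without overlap. Cd59a, which encodes the membrane inhibitor of the terminal attack complex, measured 8.11, 8.06, 8.02 and 8.13 in 5ELKO and 8.25, 8.40 and 8.49 in ELKO. Every 5ELKO library was below every ELKO library, the difference was -0.30 ± 0.07 (nominal p = 0.0023, exact permutation p = 0.0286), and it was -0.36 without ELKO replicate 1, -0.29 without ELKO replicate 2 and -0.24, under the fold threshold, without ELKO replicate 3. The higher count was 6 without 5ELKO replicate 2. The C1q chains C1qa (0.28 ± 0.17), C1qb (0.18 ± 0.18) and C1qc (0.24 ± 0.18) did not pass.

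Few reactive astrocyte genes differed by the nominal threshold. Of 35 genes 30 were tested, 20 lay above 0, the median was 0.037, and 2 passed as higher, Gfap and Serpina3n. Gfap, the astrocyte intermediate filament, measured 12.13, 10.83, 11.32 and 11.80 in 5ELKO and 11.23, 10.97 and 9.93 in ELKO. ELKO replicate 3 was far below the other libraries, and the difference of 0.81 ± 0.34 (1.75-fold, nominal p = 0.041, exact permutation p = 0.171) was 0.42 and short of the threshold without it. The Gfap difference was also short without 5ELKO replicate 1 (0.61), 5ELKO replicate 3 (0.88) or 5ELKO replicate 4 (0.72). It was 1.07 without ELKO replicate 1 and 0.94 without ELKO replicate 2. Serpina3n, a secreted protease inhibitor of reactive astrocytes, measured 9.33, 8.07, 8.46 and 9.36 in 5ELKO and 8.40, 8.02 and 7.90 in ELKO (0.70 ± 0.29, nominal p = 0.0401, exact permutation p = 0.171). It fell short of the threshold at 0.66 without ELKO replicate 2 and at 0.60 without ELKO replicate 3. It was short too at 0.52 without 5ELKO replicate 1 and at 0.51 without 5ELKO replicate 4. Vim, a second astrocyte filament, differed by 0.04 ± 0.13.

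Homeostatic astrocyte genes had a median of 0.044 with 0 of 20 past the threshold, and the glutamate transporter Slc1a3 differed by 0.15 ± 0.06 without overlap. Of 41 lysosome genes tested, 31 lay above 0 with a median of 0.045, and 3 passed as higher, namely Cd68, Ctsz and Laptm5 (0.40 ± 0.14), a lysosomal membrane protein of blood-lineage cells. The count of 3 was 0 without 5ELKO replicate 1, 1 without 5ELKO replicate 4, 2 without ELKO replicate 2 and 5 without 5ELKO replicate 2 or replicate 3. Grn, which encodes progranulin, differed by 0.25 ± 0.10 below the fold threshold, while the proteases Ctsb (0.07 ± 0.06) and Ctsd (0.15 ± 0.13) did not pass. Antigen presentation genes lay above 0 for 17 of 24 tested (median 0.054) and interferon-stimulated genes for 30 of 36 (median 0.069). Toll-like receptor and NF-kB genes did for 16 of 23 (median 0.038). These lists had 0 nominal genes in either direction, where 0.451% of all genes were higher and 0.121% lower. At such shares 0 in a list of this size, here and for other lists, says little. Groups did not overlap, with 5ELKO higher, for 2, 4 and 2 of these genes in turn, and for 1.78% of all genes. Among them the MHC class I heavy chain H2-K1 (0.18 ± 0.07), the peptide transporter Tap2 (0.18 ± 0.07), Parp14 (0.22 ± 0.07) and the endosomal receptor chaperone Unc93b1 (0.18 ± 0.07) had folds under 1.2.

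Among 17 genes for App, its secretases and amyloid-degrading enzymes, 1 passed in each direction. Ide, the insulin-degrading enzyme that also cleaves amyloid beta, measured 10.81, 10.78, 10.75 and 10.50 in 5ELKO and 10.55, 10.47 and 10.04 in ELKO (0.36 ± 0.12, nominal p = 0.0148, exact permutation p = 0.0857), and the difference was 0.20, under the fold threshold, without ELKO replicate 3. Mme, the amyloid-degrading peptidase neprilysin, measured 7.21, 7.08, 7.37 and 7.18 in 5ELKO and 7.63, 8.06 and 7.29 in ELKO (-0.45 ± 0.16, nominal p = 0.0166, exact permutation p = 0.0571). The Mme difference was -0.25 and short of the threshold without ELKO replicate 2, its highest library. The secretase genes Bace1 (0.04 ± 0.07) and Adam10 (0.08 ± 0.05) did not pass.

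PPAR and lipid-handling genes had a median of 0.036 over 44 tested, with 4 higher nominal genes. These were the apolipoproteins Apoa1 (0.41 ± 0.14) and Apoa2 (0.31 ± 0.12), the gluconeogenic enzyme gene Pck1 (0.27 ± 0.09) and the cytochrome P450 gene Cyp2e1 (0.51 ± 0.19), and all 4 also belong to the hepatocyte marker list. Cyp2e1 measured 5.65, 4.79, 4.70 and 4.98 in 5ELKO and 4.49, 4.56 and 4.52 in ELKO. It was 0.49 and short of the threshold without ELKO replicate 1, as Pck1 was at 0.26. Apoa2 was 0.29 and short of it without ELKO replicate 2. The count of 4 was 2 without 5ELKO replicate 1, 3 without 5ELKO replicate 4 and 5 without ELKO replicate 1. The receptor Pparg itself lay between 4.25 and 4.33 in the 7 libraries (difference -0.02 ± 0.04), and Cd36 (0.01 ± 0.06), Plin2 (0.08 ± 0.11) and Fabp7 (0.24 ± 0.20) did not pass. The cholesterol exporter Abca1 differed by 0.15 ± 0.16, and by 0.37, past the nominal threshold, without ELKO replicate 1, where it was highest.

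Hepatocyte markers were higher in 5ELKO throughout the list. Of 32 genes 29 were tested, all 29 lay above 0 with a median of 0.27, 26 had a nominal p under 0.05, 17 passed with the fold and 22 had non-overlapping groups. The 17 became 11 without ELKO replicate 1 and 11 without 5ELKO replicate 1. Alb measured 8.18, 7.22, 8.38 and 8.01 in 5ELKO and 5.69, 6.23 and 5.81 in ELKO, a difference of 2.04 ± 0.24 (4.11-fold, nominal p = 1.04e-05, exact permutation p = 0.0286). Its adjusted p of 0.163 was the smallest of all genes, and it was 0.00329 without 5ELKO replicate 2, the only gene past an adjusted p of 0.05 when a single library was left out. Serpina3k, a liver serine protease inhibitor, differed by 0.71 ± 0.10 (adjusted p = 0.342 in limma), Serpina1e by 0.55 ± 0.12 and the fibrinogen chain Fga by 0.32 ± 0.08. The mean log2 level of the list ran from 4.778 to 5.052 in 5ELKO and from 4.495 to 4.618 in ELKO, and EL replicate 1, a library of another genotype without 5xFAD, stood at 5.159 with Alb at 8.59. Apart from Alb, most of these transcripts lay at levels near the filter.

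With all 7 libraries the other marker lists held at most 1 nominal gene each, but several moved with a single ELKO library. Choroid plexus genes had a median of -0.582 over 16 tested, 0 above 0, and 0.114 without ELKO replicate 2, which was the highest ELKO library for all 16. There were 3 lower nominal genes on it without ELKO replicate 1 and 12 without ELKO replicate 3. The mean level of that list was 5.814 to 6.048 in 5ELKO and 5.585 to 7.854 in ELKO. Erythroid (3 tested, median 0.198), ependymal (19 tested, 0.146), endothelial (12 tested, 0.053), mural and fibroblast (16 tested, -0.006), perivascular macrophage and monocyte (6 tested, -0.064), striatum (10 tested, 0.048), hypothalamus and pituitary (11 tested, 0.036) and habenula genes (10 tested, -0.099) had 0 nominal genes. The habenula median was 0.052 without ELKO replicate 1, 0.203 without ELKO replicate 2 and -0.544 without ELKO replicate 3, with 6 lower nominal genes in the last case. Without ELKO replicate 1 the hypothalamus and pituitary median was 0.156 with 2 higher nominal genes, the endothelial median was -0.021 with 1 lower and the mural and fibroblast list held 2 lower. The ependymal median was -0.128 without ELKO replicate 3. Of 14 T cell and neutrophil markers only Trbc2 was tested (0.01 ± 0.06), and the monocyte marker Ccr2 was below the filter.

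**Figure D3:**
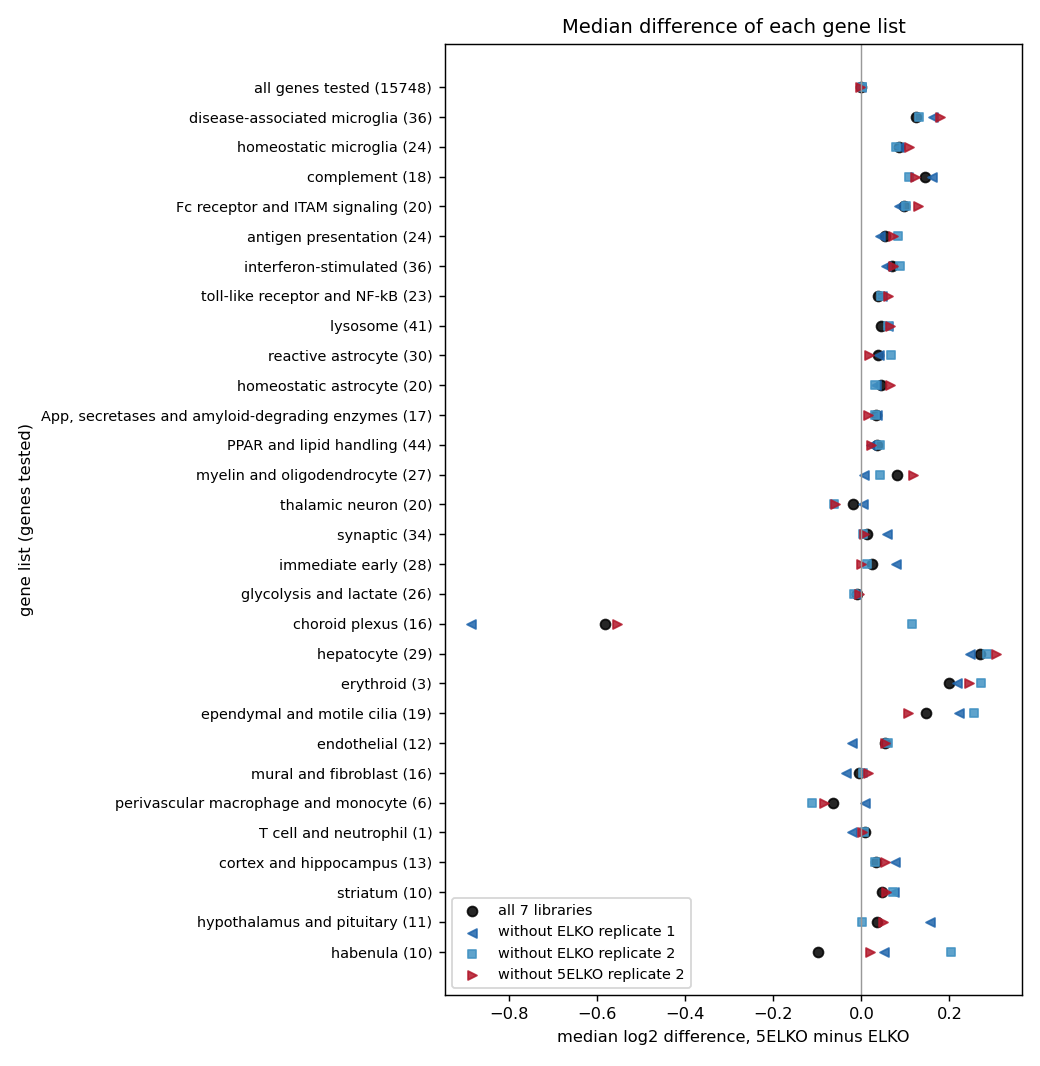
Median log2 difference, 5ELKO minus ELKO, of each gene list (number of genes tested in brackets) with all 7 libraries (black circles) and with ELKO replicate 1, ELKO replicate 2 or 5ELKO replicate 2 left out. In these 4 readings the DAM list lies between 0.125 and 0.178 and the hepatocyte list between 0.246 and 0.306. Choroid plexus moves from -0.582 to 0.114 without ELKO replicate 2. Not drawn are the lower DAM medians of 0.084 without 5ELKO replicate 1 and 0.088 without 5ELKO replicate 4.

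Myelin and oligodendrocyte genes had a median of 0.081 over 27 tested, and the 2 that passed were C4b and Serpina3n, which that list shares with the lists above. Immediate early genes (28 tested, 0.025) and glycolysis and lactate genes (26 tested, -0.009) had 0 nominal genes. The immediate early list held 2 higher without ELKO replicate 1 and 2 lower without ELKO replicate 3. Thalamic neuron genes had a median of -0.020 over 20 tested with 0 nominal genes, and the vesicular glutamate transporter Slc17a6 differed by -0.07 ± 0.08. Synaptic genes had a median of 0.013 over 34 tested, and the 3 that passed were the inhibitory genes Gad1, Gad2 and Slc32a1. The count of 3 was 1 without ELKO replicate 3 or 5ELKO replicate 3 and 2 without 5ELKO replicate 4. Gad1, which encodes a GABA-synthesising enzyme, measured 11.25, 11.20, 11.90 and 11.69 in 5ELKO and 11.03, 11.21 and 9.52 in ELKO. ELKO replicate 3 was far below the other 6 libraries, and the difference of 0.92 ± 0.36 (nominal p = 0.0282, exact permutation p = 0.0571) was 0.39 and short of the threshold without it.

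Gad2, the second GABA-synthesising enzyme, differed by 0.83 ± 0.28, and by 0.47 without ELKO replicate 3, and Slc32a1, the vesicular GABA transporter, by 0.73 ± 0.26, and by 0.41, short of the threshold, without that library. Transcription factors of forebrain inhibitory neurons among the nominal genes, chosen after their values were seen, were Dlx1 (0.78 ± 0.20), Dlx6 (0.37 ± 0.10), Meis2 (0.75 ± 0.30), Isl1 (0.51 ± 0.17), Lhx6 (0.29 ± 0.09) and Sp8 (0.34 ± 0.13), with the noncoding transcript Six3os1 (0.50 ± 0.17). ELKO replicate 3 was the lowest of the 7 libraries, ties included, for all 10 of these genes, and 5ELKO replicate 2 the lowest of its group for all 10. Without ELKO replicate 3 only 5 of the 10 passed the threshold, with Meis2 at 0.41, Isl1 at 0.35 and Sp8 at 0.22 short of it beside Gad1 and Slc32a1. Ebf2 (0.63 ± 0.12) and the excitatory neuron factors Tbr1 (0.46 ± 0.11) and Eomes (0.43 ± 0.12) were also higher, Ebf2 and Tbr1 without overlap. The cortex and hippocampus list, to which Tbr1 belongs, had a median of 0.033 over 13 tested with 1 nominal gene. How much inhibitory tissue each dissection held was not tested.

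**Figure D4:**
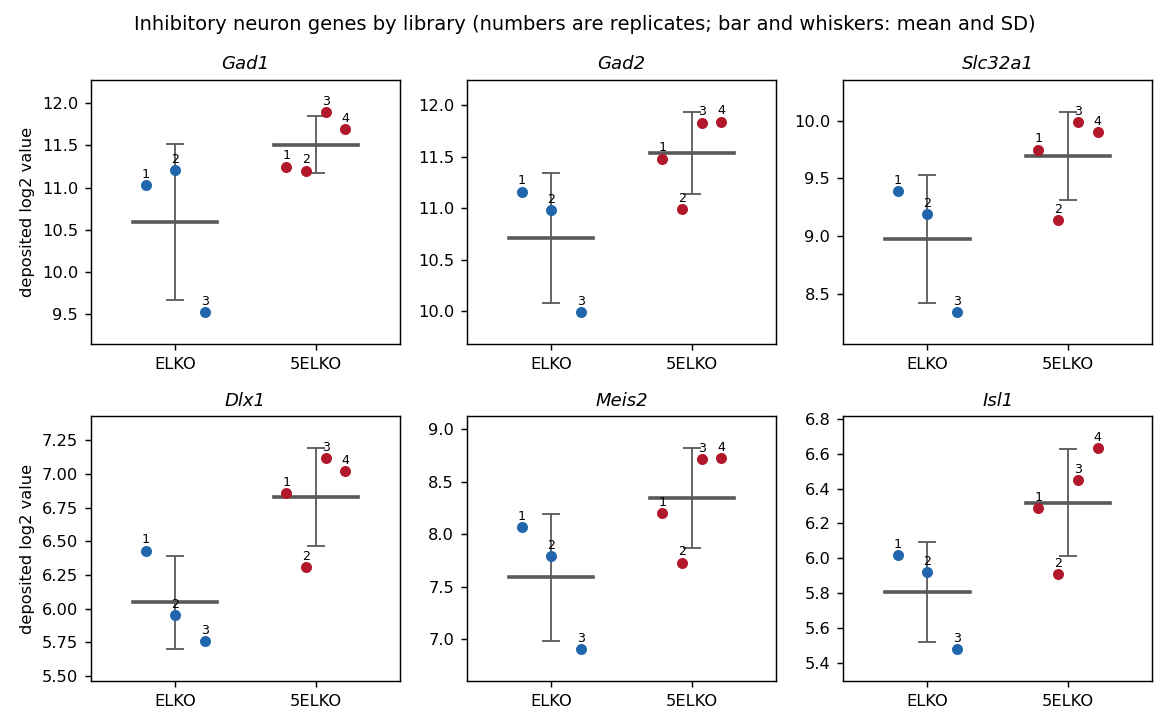
Deposited log2 values of 6 inhibitory neuron genes in each ELKO (blue) and 5ELKO (red) library, with the replicate number above each point, the mean as a bar and the SD as whiskers, and axes that do not start at 0. ELKO replicate 3 is the lowest point in every panel, and in every panel at least 1 of the other ELKO libraries lies above 5ELKO replicate 2.

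The 19 lower nominal genes ranged in size from 0.27 to 0.47 and held few members of the lists. Cd59a and Mme, described above, were among them, and the groups overlapped for Mme. Lmx1a, a transcription factor gene that was not one of the 19, had non-overlapping groups (-0.21 ± 0.05, exact permutation p = 0.0286) at a fold under 1.2. Sfrp5, a secreted Wnt inhibitor, differed by -0.34 ± 0.09 without overlap. Igfbp2, a carrier of insulin-like growth factors, differed by -0.45 ± 0.18, and by -0.21 without ELKO replicate 2, its highest library, short of the threshold, and Dbp, a clock output factor, by -0.30 ± 0.10, and by -0.22, under the fold threshold, without ELKO replicate 3.

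The same genes were read in 5EL against EL, other libraries of the same series. That comparison had 0 genes at an adjusted p under 0.05 in limma, 1218 at an unadjusted p under 0.05 (7.71%), and 242 higher and 139 lower nominal genes (1.53% and 0.879% of 15805). Of the 71 higher genes without Lilrb4a, 25 were also nominal with it, 35.2% of the 71 and 10.3% of the 242, and of the 19 lower genes 0 were. The shared genes included Cst7, Itgax, Trem2, Clec7a, Cd68, Gpnmb, Ctsz, C4b, C3ar1, Gfap, Serpina3n, Gad2 and Dlx1. Both comparisons rest on control libraries that deviated together, mainly replicate 3 against replicates 1 and 2. Same-numbered EL and ELKO libraries had correlations of their deviations from the group mean of 0.453, 0.326 and 0.743 over the tested genes. EL replicate 1 with ELKO replicate 2 had 0.376, and EL replicate 2 with ELKO replicate 1 had 0.296. Pairs of a replicate 3 with a replicate 1 or 2 ranged from -0.626 to -0.465. EL replicate 3 was the lowest EL library for Gad2 (8.65 against 10.70 and 10.84), Gfap (9.66 against 10.36 and 10.48) and C4b (7.25 against 7.69 and 7.94), as ELKO replicate 3 was in ELKO. The shared count can therefore not be read as coming from independent controls. The DAM median was 0.245 in 5EL minus EL with 18 higher nominal genes and 1 lower, Igf1, beside 0.125 with 7 higher and 0 lower.

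Gfap differed by 1.35 ± 0.31 with Lilrb4a and 0.81 without, Cst7 by 1.02 ± 0.27 and 0.78, Serpina3n by 0.99 ± 0.25 and 0.70, C4b by 0.77 ± 0.19 and 0.65, and Trem2 by 0.46 ± 0.20 and 0.58. The difference between these differences, tested as the interaction in a fit of all 15 libraries, was -0.54 ± 0.45 for Gfap, -0.24 ± 0.39 for Cst7 and 0.13 ± 0.29 for Trem2. No interaction passed an adjusted p of 0.05 in limma, and 433 genes (2.74%) had an unadjusted p under 0.05. With same-numbered EL and ELKO libraries paired by a replicate block, an alternative chosen after seeing the data, the interaction of Gfap was -0.54 ± 0.34, that of Cst7 -0.24 ± 0.40 and that of Trem2 0.13 ± 0.29, 0 genes passed the adjusted p and 789 (4.99%) had an unadjusted p under 0.05. With single libraries left out the number at an unadjusted p under 0.05 ranged from 267 without ELKO replicate 2 to 1229 without EL replicate 1, and it was 851 without ELKO replicate 3. An effect of Lilrb4a on the response of these 3 genes to 5xFAD was not detectable in either fit. The smallest interaction p-values were those of Fzd10, a Wnt receptor gene (0.54), the apolipoprotein gene Apoc3 (0.25) and Alb (2.70 ± 0.71, and 1.78 ± 0.39 without EL replicate 1).

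All 17 hepatocyte-list genes among the 71 were below 0 in 5EL minus EL (from -0.66 to -0.12), where EL replicate 1 holds the highest Alb. That direction rests on this library, since without it 16 of the 17 were above 0 (from -0.02 to 0.26), Alb at 0.26 ± 0.29 and Serpina3k at 0.09 ± 0.11. Of the other 54 genes, 48 were above 0, and over all genes 7903 of 15748 were. The 54 were chosen for being higher in 5ELKO, and the control libraries of both comparisons deviated together.

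**Figure D5:**
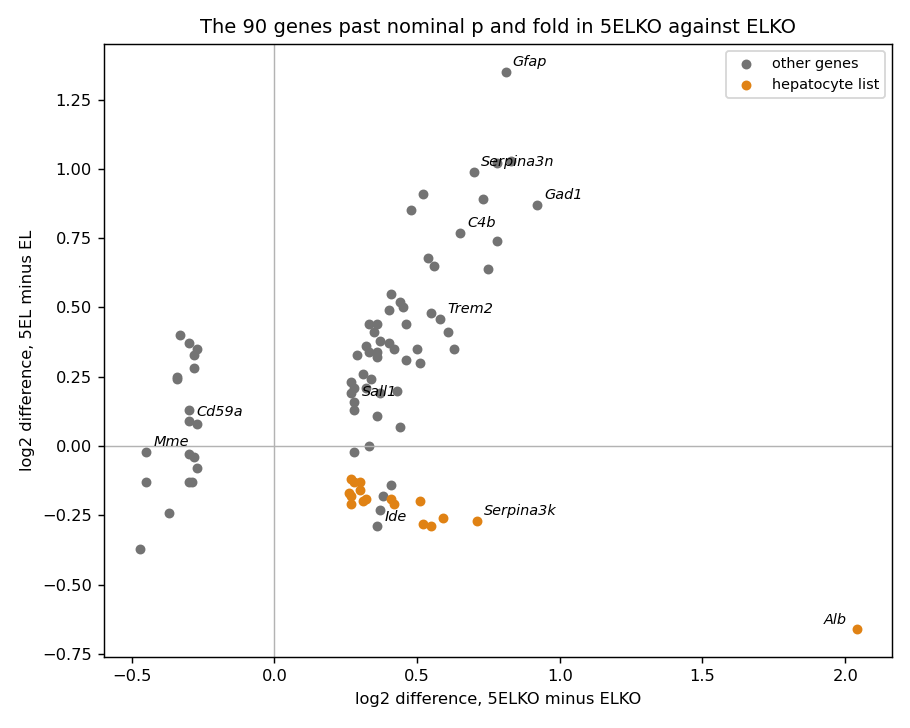
Scatter plot of the 90 nominal genes of 5ELKO against ELKO, with the 5ELKO minus ELKO log2 difference on the x axis and the 5EL minus EL difference on the y axis, and the 17 hepatocyte-list genes in orange. The 17 all lie below 0 on the y axis (16 of them are above 0 without EL replicate 1). Of the 54 other higher genes 48 lie above 0, as do 7903 of 15748 genes tested.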

How the data were processed

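Thalamic polyA RNA was sequenced in 15 libraries. Per the labels and methods, Trimmomatic 0.39 was used for trimming, HISAT2 2.2.1 for alignment to GRCm38 and featureCounts 2.0.3 for unstranded exon counts of read pairs per gene name, and DESeq2 1.38.3 is named without its role for these files. The deposited values are log2 values, 29659 genes per library from -2.27 to 18.98. The transform is not given in the sources used here. It draws low genes together, and the files give no counts, so depth is unknown, the precision of a gene is known only from its replicates, and folds of low genes are understated.

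The 5ELKO and ELKO libraries were compared with limma 3.58.1 in R 4.3.3 (lmFit, eBayes with a trend, Benjamini-Hochberg adjustment), and single genes with a two-sided exact permutation test of means over 35 splits, whose smallest p is 0.0286. The interaction was fitted on all 15 libraries. Tested on simulated data over 15748 genes with 200 changed, 92% of log2 changes of 0.5 and 99% of 1.0 were recovered, with 10 false calls. The simulated noise was independent between genes, without the deviations shared by whole libraries seen here. These shares are therefore a check of the code and do not give the power in these data. The genes named were label checks, the 5 smallest p-values each way, list members with the smallest p, the 5 smallest interaction p-values, the largest nominal differences and the DAM list. Since no gene passed the adjusted p, nominal list members were named. Other genes were picked once their values were known. The comparison and the 29 gene lists were chosen with earlier results of these data known. Promoter windows are from RefSeq. A few genes are not reported here. Alternatives were the filter, the variance prior, all 15 libraries in 1 fit, a replicate block, recentring, Xist as a covariate, marker genes left out, and libraries left out. Pairing EL with ELKO libraries by number in the interaction was added after seeing the data.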

Additional observations from a re-analysis of the deposited data

Results flagged for a closer look

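In 10 of 187 groups of 4 libraries checked, 1 library lay far from the rest, its gap to the nearest other library divided by the range of the group passing Dixon's critical value, and chance gives about 1 in 20 such groups. In 5ELKO replicate 3 this was Xist at 0.31 against 0.17 to 0.18 (0.8998), Lmx1a at 3.61 against 3.53 to 3.54 (0.8996) and the mean level of the choroid plexus list at 6.048 (0.8419). 5ELKO replicate 2 was apart in Penk, an opioid precursor gene, at 7.11 (0.8292), in the cystine transporter gene Slc7a11 at 10.30 (0.9123) and in the mean level of the hypothalamus and pituitary list (0.9086). 5ELKO replicate 1 was apart in Pmch, the melanin-concentrating hormone gene, at 4.69 (0.8621) and in Mat1a, a liver methionine enzyme gene, at 4.68 (0.843). 5ELKO replicate 4 was apart in Lgals3 at 4.81 (0.9053), lower than the other 3, and in the mean level of the erythroid list at 5.468 (0.8613).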

How the results depend on the processing

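No gene passed an adjusted p of 0.05 in limma under the filter, prior, covariate, recentring, block and 15-library alternatives. With single libraries left out the number of higher genes past it ranged from 0 to 1 and of lower genes stayed at 0, and with ELKO replicates 1 and 2 both left out, where ELKO replicate 3 alone is assumed to vary like 5ELKO, it was 117 higher and 99 lower. Nominal genes with single libraries left out ranged from 46 to 152 higher and from 14 to 123 lower, and with both ELKO libraries left out there were 1158 and 855. Lower nominal genes numbered 12 with no filter and 7 with all 15 libraries in 1 fit, and the cause was not tested. In 5EL against EL the number past the adjusted p was 1 with no filter and ranged from 0 to 31 with single libraries left out, the 31 without EL replicate 1. Apoe turned from -1.41 to 0.22 without ELKO replicate 1 (with other libraries left out it reached -2.26) and to 0.27 without both, and Ttr from -1.28 to 1.36 without both, since those libraries hold the high values. DAM genes past the nominal threshold numbered 4 with no filter and 4 with robust estimation.

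With the replicate number as a block there were 0 genes past the adjusted p, and 55 higher and 18 lower nominal genes, against 71 and 19 without it. Same-numbered 5ELKO and ELKO libraries had correlations of deviations of 0.214, 0.0251 and -0.320, not every library correlated best with its own number, and the libraries were treated as sharing only a number. Pairing EL with ELKO by number left 0 interactions and 0 genes of 5EL against EL past the adjusted p. Of 2583 values recomputed over all alternatives, 2203 kept direction and side of the threshold or stayed within the limits set, 249 fell short of the threshold, 70 came to pass it, 58 moved and 3 reversed. Depth could not be used to limit any statement, because the values hold no counts and the study lists no read totals for ELKO or EL mice.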

Other observations

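3 genes of a region on chromosome 19 of GRCm38 (GENCODE M21), chosen after their values were seen, had differences above 0 in 5ELKO minus ELKO and below 0 in 5EL minus EL. Values of other genes in the region, also between Btaf1 and Ide, are not given here. The 3 genes are Fgfbp3 (36917550 to 36919615), Btaf1 (36926079 to 37012752) and Ide (37268743 to 37337852). Btaf1, a regulator of TATA-binding protein, measured 10.16, 10.22, 10.04 and 9.71 in 5ELKO and 9.87, 9.76 and 9.36 in ELKO, where Ide also had its lowest library. Fgfbp3, a carrier of fibroblast growth factors, differed by 0.19 ± 0.07 without overlap and Btaf1 by 0.37 ± 0.14, and by 0.21, short of the nominal threshold, without ELKO replicate 3. In 5EL minus EL the differences were -0.27 for Fgfbp3, -0.23 for Btaf1 and -0.29 for Ide, of which only Fgfbp3 passed the nominal threshold, and 5EL replicate 1 lay at 10.10 for Btaf1 and 10.78 for Ide, above and within the EL values of 9.72 to 9.99 and 10.39 to 10.84. The interaction was 0.46 ± 0.14 for Fgfbp3, 0.60 ± 0.23 for Btaf1 and 0.65 ± 0.22 for Ide, none past an adjusted p of 0.05.

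Igf1, a growth factor gene on the DAM list, measured 8.63, 8.81, 8.51 and 8.62 in 5ELKO and 8.65, 8.50 and 8.68 in ELKO, and differed by -0.43 ± 0.11 in 5EL minus EL, with an interaction of 0.46 ± 0.17 (adjusted p = 1 in limma). Cd59a, lower in 5ELKO, differed by 0.09 ± 0.14 in 5EL minus EL, where EL replicate 3 measured 8.72 and EL replicates 1 and 2 measured 8.04 and 8.01.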
